A study of Mus musculus with 24 samples.

Results

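The report describes 10 marker genes of Kupffer cells, the resident macrophages of the liver: Vsig4, Clec4f, C1qa, C1qb, C1qc, Cd5l, Timd4, Marco, Adgre1 (named Emr1 in older annotation) and Cd68. They were found by gene name among the non-control probes of the scanner files, which gave 14 probes of 56605 on the array. Of these, 12 were bright enough to be tested, among 32078 tested probes, and all 10 genes kept at least 1 tested probe. Each gene is represented by its brightest tested probe.

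RNA from C57BL/6J mouse liver was hybridised to 24 single-colour Agilent arrays, in 4 labelled groups of 6. The groups were labelled male pesticide, male control, female pesticide and female control. A diet with an added pesticide mixture was given for 52 weeks in the pesticide groups and a control diet for the same span in the control groups, and the labels put all mice at 68 weeks of age. The mixture, named in the series title as set at the Acceptable Daily Intake level, is not itemised in the labels. The labels count 6 liver samples a group without numbering the mice, so p-values measure the spread between liver samples.

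Sex-linked transcripts did not follow the sex labels. Xist was well above background on 6 of 6 labelled male pesticide arrays, 0 of 6 labelled male control, 6 of 6 labelled female pesticide and 0 of 6 labelled female control arrays, and the Y-linked Eif2s3y, Ddx3y and Uty had the opposite pattern. Hence 12 arrays, the 6 labelled male pesticide and the 6 labelled female control, go against their sex label. Labelled diet and sex-chromosome transcripts coincide on every array and cannot be told apart in any pesticide comparison below. The changes of the marker genes are also given for labelled female pesticide against labelled male control, the 12 arrays whose transcripts match their labels. They are given as well for the 12 that do not. Labelled diet and sex-linked transcripts coincide in these comparisons too. Fold changes of other genes, and the tests of unequal change, are given only within a labelled sex. The number of probes well above background ran from 29935 to 39032 among arrays, and each of 3 slides held 2 arrays of each group.

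Kupffer cells line the liver sinusoids and take up particles, aged red cells and complement-coated material from blood. Complement C1q is the recognition molecule of the classical complement pathway. It is assembled from A, B and C chains encoded by neighbouring genes, and macrophages are a main source of it. Vsig4 is a receptor for complement C3 fragments, Clec4f a C-type lectin confined to Kupffer cells in mice, and Timd4 a receptor for phosphatidylserine on dying cells. Cd5l is a secreted scavenger-family protein, Marco a scavenger receptor for bacteria and particles, Adgre1 an adhesion-family surface receptor, and Cd68 a glycoprotein of macrophage lysosomes. In whole liver, more macrophages and more RNA per macrophage cannot be told apart.

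The letters read by 3 of the probes are shown, those of Vsig4 and of the C1q chains C1qa and C1qb. The C1q chains belong to the same family, and their signals could be confused if the probes were alike. The C1qc probe is compared below but not printed. The 60-base probe of Vsig4 lies at chrX:93443157-93443216, that of C1qa at chr4:136452409-136452468 and that of C1qb at chr4:136436578-136436637 (mm9, minus strand, positions from the file headers' build), and each is printed 5′ to 3′ in lower case, with nothing marked.
Vsig4: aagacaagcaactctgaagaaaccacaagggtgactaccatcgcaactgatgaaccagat
C1qa: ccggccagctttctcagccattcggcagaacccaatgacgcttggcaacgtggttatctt
C1qb: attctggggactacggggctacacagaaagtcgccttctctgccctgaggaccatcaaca
The C1qa, C1qb and C1qc probes lie within 15891 bases of chromosome 4, on the same strand. The longest run of bases that 2 of these 3 probes share is 5 for C1qa and C1qb, and 6 for each of the other pairs. The 3 chains were thus read by unlike sequences.

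RefSeq promoter windows (GRCm38.p6) were at hand for 8 of the 10 genes, all but C1qa and Adgre1. The stretches upstream of the gene model are shown for the pair with the largest rise in labelled males outside the C1q cluster and for C1qb and C1qc, whose levels moved together. They lie at chrX:96293439-96293688 for Vsig4, chr6:83656117-83656366 for Clec4f, chr4:136886201-136886450 for C1qb and chr4:136892937-136893164 for C1qc, all on the minus strand. Capitals mark matches, on either strand, to GAGGAAG (PU.1), TGGGAA (RBPJ), AGGTCA (a nuclear receptor half-site) or CACGTG (an E-box).
Vsig4: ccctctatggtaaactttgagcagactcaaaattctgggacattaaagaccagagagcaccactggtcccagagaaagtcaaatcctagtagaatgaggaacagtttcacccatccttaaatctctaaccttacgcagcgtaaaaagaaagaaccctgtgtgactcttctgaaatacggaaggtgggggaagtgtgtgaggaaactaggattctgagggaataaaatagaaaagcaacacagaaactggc
Clec4f: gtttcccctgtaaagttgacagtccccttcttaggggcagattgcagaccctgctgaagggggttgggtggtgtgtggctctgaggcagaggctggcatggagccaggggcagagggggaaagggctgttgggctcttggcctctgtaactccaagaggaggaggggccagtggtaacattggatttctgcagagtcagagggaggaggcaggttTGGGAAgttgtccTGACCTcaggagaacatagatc
C1qb: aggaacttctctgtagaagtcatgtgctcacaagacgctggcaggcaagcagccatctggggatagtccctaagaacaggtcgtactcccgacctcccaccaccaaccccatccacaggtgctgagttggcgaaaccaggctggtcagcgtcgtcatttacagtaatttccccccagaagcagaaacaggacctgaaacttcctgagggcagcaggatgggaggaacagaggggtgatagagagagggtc
C1qc: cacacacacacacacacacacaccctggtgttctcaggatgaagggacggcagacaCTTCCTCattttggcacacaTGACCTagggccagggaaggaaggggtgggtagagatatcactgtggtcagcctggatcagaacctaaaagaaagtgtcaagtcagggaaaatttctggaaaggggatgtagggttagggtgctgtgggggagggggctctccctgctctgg
In the windows of 300 bases, GAGGAAG stood in 3 of the 8 genes (C1qc, Cd5l, Marco) and in 13.6% of all 32851 RefSeq promoters. TGGGAA stood in 3 of 8 (Cd68, Clec4f, Marco) against 25.6% of all, AGGTCA in 3 of 8 (C1qc, Clec4f, Timd4) against 16.3%, and CACGTG in 0 of 8 against 7.15%. No 2 of the marked matches overlap in the stretches shown. The printed stretches of Vsig4 and C1qb hold no match.

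Which Kupffer cell genes differed between the labelled diets was asked first in labelled males. All values are log2 intensities after quantile normalization, and fold changes come from limma with Benjamini-Hochberg adjustment over all 32078 tested probes. Of the 10 genes, 9 rose in labelled male pesticide livers, and Marco did not pass the test. In the same comparison 11.6% of all tested probes were called higher and 10.7% lower. The median log2 fold change of the 10 genes was 1.30, against -0.03 over all tested probes. In 6 of the 10 every labelled male pesticide array was above every labelled male control array, as was the case for 5.60% of all probes.

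Vsig4 had the largest estimate of the 10. Its values on the labelled male pesticide arrays had a lowest of 10.55, a median of 10.73 and a highest of 11.17, against 8.51, 8.85 and 9.54 on the labelled male control arrays. The groups did not overlap, and the log2 fold change was 1.88 ± 0.26 (SE), or 3.69-fold (adjusted p = 1.13e-05, limma). Labelled female pesticide arrays spanned 9.79 to 11.28 with a median of 10.90, and labelled female control arrays 8.24 to 10.33 with a median of 8.99. There 1 labelled female control array, number 4, lay above the lowest labelled female pesticide array, number 5. The log2 fold change was 1.65 ± 0.26 (adjusted p = 8.39e-05, limma). Vsig4 lies on the X chromosome, as does Xist, whose level separates these groups. The other 9 genes are autosomal, and 8 of them passed the test in the same direction without X and Y probes. Those probes were left out after normalization, so the fold changes of the other genes stayed as they were. That setting therefore cannot tell labelled diet from sex-linked transcripts.

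Clec4f had values of 13.39 to 13.90 (median 13.82) on labelled male pesticide arrays, against 12.09 to 12.61 (median 12.16) on labelled male control arrays. The 2 groups were separated by more than the range of either, with a log2 fold change of 1.43 ± 0.23 (adjusted p = 0.000108, limma). In labelled females the values were 12.79 to 14.23 (median 13.71) with pesticide and 11.65 to 13.51 (median 12.27) in controls. Again only labelled female control 4 reached into the pesticide range, and the log2 fold change was 1.24 ± 0.23 (adjusted p = 0.000613, limma).

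The C1q chains rose together. C1qa lay between 11.36 and 11.94 (median 11.67) on labelled male pesticide arrays, against 9.64 and 10.92 (median 9.94) on labelled male control arrays. This was a log2 fold change of 1.53 ± 0.30, or 2.89-fold (adjusted p = 0.000746, limma). C1qb reached 10.94 to 11.46 with pesticide and 9.23 to 10.59 in controls, and C1qc 12.08 to 12.66 with pesticide and 10.84 to 11.95 in controls. None of the 3 chains overlapped between the labelled male groups, and the log2 fold changes of C1qb and C1qc were 1.39 ± 0.29 and 1.24 ± 0.26 (adjusted p = 0.00149 and 0.00168, limma).

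In labelled females the 6 values of C1qa with pesticide were 11.66, 12.15, 11.83, 11.65, 10.95 and 11.32, against 10.17, 9.40, 10.05, 12.05, 10.14 and 10.13 in controls. The 12.05 is labelled female control 4, which exceeded 5 of the 6 pesticide arrays, while the other 5 controls lay below all of them. The log2 fold change was 1.27 ± 0.30 (adjusted p = 0.00454, limma) with all arrays and 1.62 without that array. In C1qb and C1qc the same control array also exceeded 5 of the 6 pesticide arrays, with log2 fold changes of 1.29 ± 0.29 and 1.11 ± 0.26 (adjusted p = 0.00353 and 0.00498, limma). A second C1qc probe, for another transcript model, was well above background on 0 of 24 arrays and gives no level.

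Cd68 was read by 3 tested probes, all on the minus strand of chromosome 11 and all called higher in both labelled sexes. The brightest lay between 11.03 and 11.65 in labelled male pesticide livers, against 9.81 and 10.76 in labelled male control livers, with no overlap (log2 fold change 1.21 ± 0.25, adjusted p = 0.00149, limma). In labelled females it had a lowest value of 10.68 and a median of 11.54 with pesticide, against 9.94 and 10.35 in controls, and labelled female control 4, at 11.92, exceeded all but 1 of the pesticide arrays (0.97 ± 0.25, adjusted p = 0.00979, limma). The other 2 probes gave log2 fold changes of 1.25 ± 0.24 and 0.70 ± 0.17 in labelled males and 0.92 ± 0.24 and 0.59 ± 0.17 in labelled females. The dimmest of them was well above background on 16 of 24 arrays, 6 of 6 in each pesticide group and 2 of 6 in each control group. It met the filter only through the pesticide groups, where it is high, so its call adds no separate support.

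**Figure D1:**
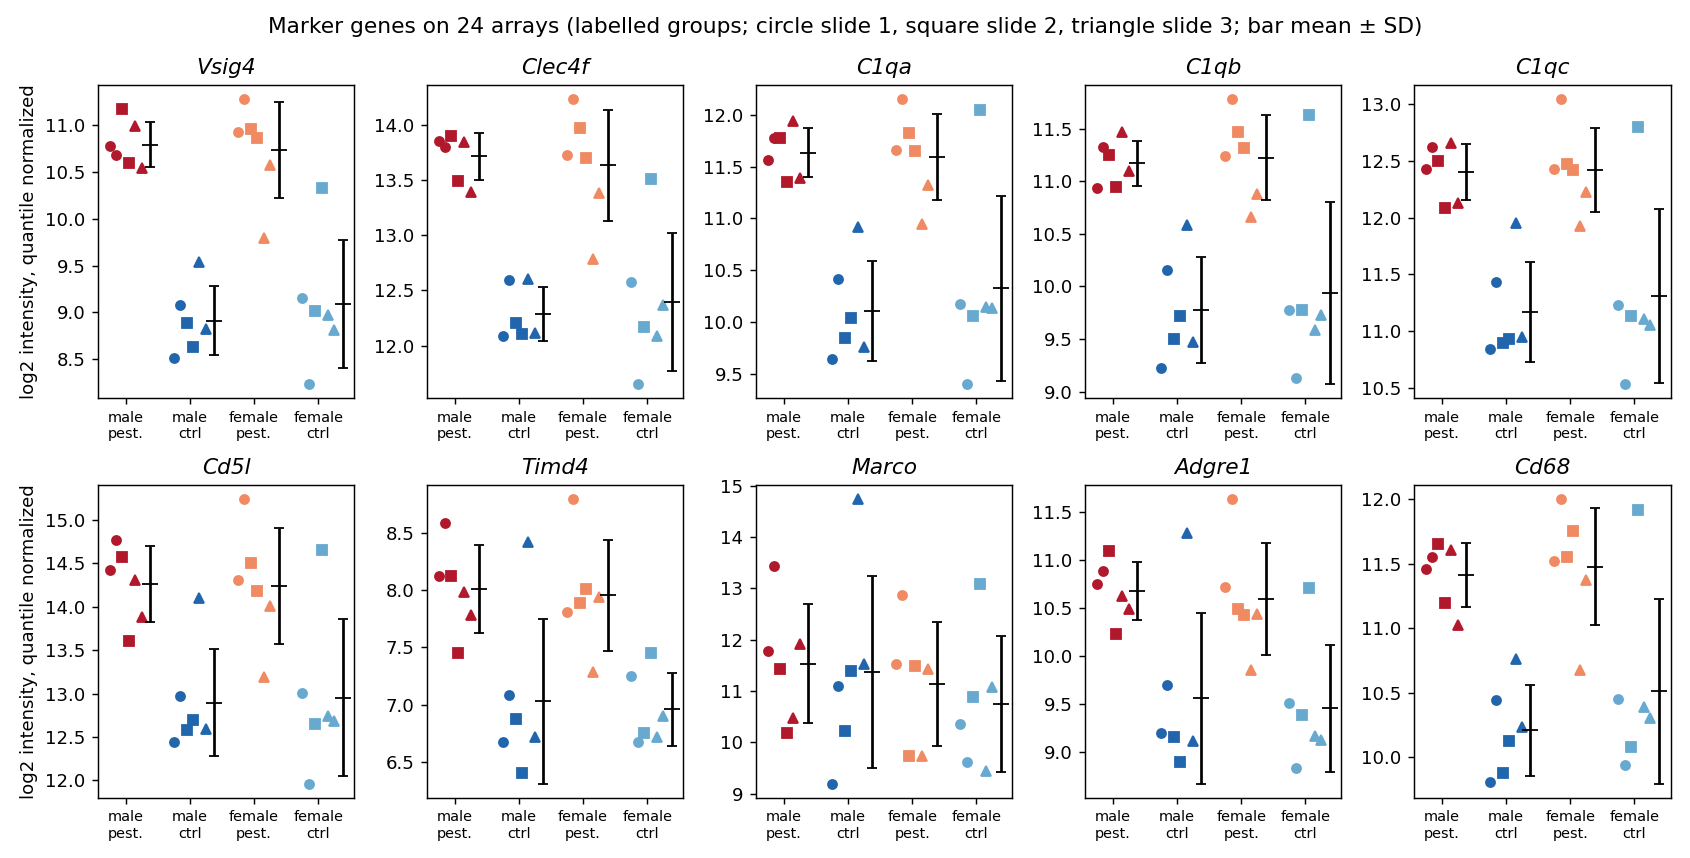
Log2 intensity of the 10 marker genes on each of 24 arrays, by labelled group, with the mean and SD (n = 6) beside each group and the slide given by the symbol. Labelled male control 5 (triangle) and labelled female control 4 (square) stand highest of their groups in every gene, and the Marco groups overlap throughout.

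Cd5l, Timd4 and Adgre1 rose as well, with an overlap between the labelled male groups. Cd5l ranged from 13.60 to 14.76 (median 14.36) in labelled male pesticide livers and from 12.44 to 14.10 (median 12.64) in labelled male control livers. The overlap came from a single control array, number 5, and the log2 fold change was 1.36 ± 0.36 (adjusted p = 0.00851, limma). In labelled females Cd5l ranged from 13.19 to 15.24 with pesticide and from 11.96 to 14.66 in controls, a log2 fold change of 1.29 ± 0.36 (adjusted p = 0.0144, limma).

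Timd4 had 8.13, 8.59, 8.12, 7.45, 7.98 and 7.78 in labelled male pesticide livers, against 6.67, 7.08, 6.88, 6.41, 8.42 and 6.71 in labelled male control livers. Its 8.42 belongs to labelled male control 5 and exceeded 5 of the 6 pesticide values. The log2 fold change was 0.98 ± 0.27 (adjusted p = 0.0106, limma), and 1.00 ± 0.27 in labelled females (adjusted p = 0.0111, limma).

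Adgre1 lay between 10.22 and 11.09 in labelled male pesticide livers, against 8.90 and 11.28 in labelled male control livers, where array 5 again was the highest of all 12. Its log2 fold change was 1.12 ± 0.34 (adjusted p = 0.0207, limma). In labelled females Adgre1 ranged from 9.85 to 11.63 with pesticide and from 8.83 to 10.70 in controls (1.14 ± 0.34, adjusted p = 0.0218, limma). This was the least firm of the 9 calls. Adjusted p was 0.0534 without labelled male control 4 in labelled males, and 0.0604 and 0.0535 in labelled females without labelled female pesticide 2 and without labelled female control 2. A second Adgre1 probe, 5′ of the first, was well above background on 3 of 24 arrays and was not tested.

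Marco did not pass the test in any comparison. Its 6 values were 11.78, 13.43, 11.44, 10.18, 10.48 and 11.91 in labelled male pesticide livers, against 9.20, 11.09, 10.22, 11.40, 14.74 and 11.53 in labelled male control livers. They were 11.53, 12.87, 9.73, 11.48, 9.74 and 11.44 in labelled female pesticide livers and 10.35, 9.62, 10.89, 13.08, 9.45 and 11.08 in labelled female control livers. The groups overlapped almost entirely, and the SD within a group was between 1.16 and 1.87, the widest of the 10 genes. The log2 fold change was 0.17 ± 0.75 in labelled males (95% interval -1.38 to 1.72, adjusted p = 0.902, limma) and 0.39 ± 0.75 in labelled females (-1.16 to 1.94, adjusted p = 0.768, limma). Without labelled male control 5 the male value was 0.85, and without labelled male pesticide 2 it was -0.21. The estimates of the other 9 genes lie inside the interval in labelled females, and all but that of Vsig4 do in labelled males, so a rise of such a size was neither shown nor excluded for Marco with 6 arrays a group.

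In labelled females 9 of the 10 genes rose and Marco did not pass, while 8.88% of all tested probes were called higher and 9.44% lower. The median log2 fold change of the 10 was 1.19, against -0.02 over all probes. In 0 of the 10 did every pesticide array lie above every control array, which held for 3.64% of all probes. In each of the 9 genes that rose, exactly 1 labelled female control array, number 4, lay above the lowest pesticide array.

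On the 12 arrays whose sex-linked transcripts match their labels, labelled female pesticide against labelled male control, 9 of the 10 genes rose (9.96% of all probes called higher), and 4 did not overlap (5.20% of all probes). Vsig4 differed by 1.82 ± 0.26, Clec4f by 1.35 ± 0.23, C1qa by 1.49 ± 0.30 and Marco by -0.23 ± 0.75 on the log2 scale (adjusted p = 1.8e-05, 0.000214, 0.00102 and 0.862, limma). On the 12 that go against their labels, labelled male pesticide against labelled female control, 9 of 10 rose as well (11.0% called higher), and 2 did not overlap (3.51% of all probes). The same 4 genes differed there by 1.71 ± 0.26, 1.32 ± 0.23, 1.31 ± 0.30 and 0.79 ± 0.75 (adjusted p = 4.74e-05, 0.000278, 0.00302 and 0.499, limma). These comparisons share their arrays with the ones within a labelled sex.

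**Figure D2:**
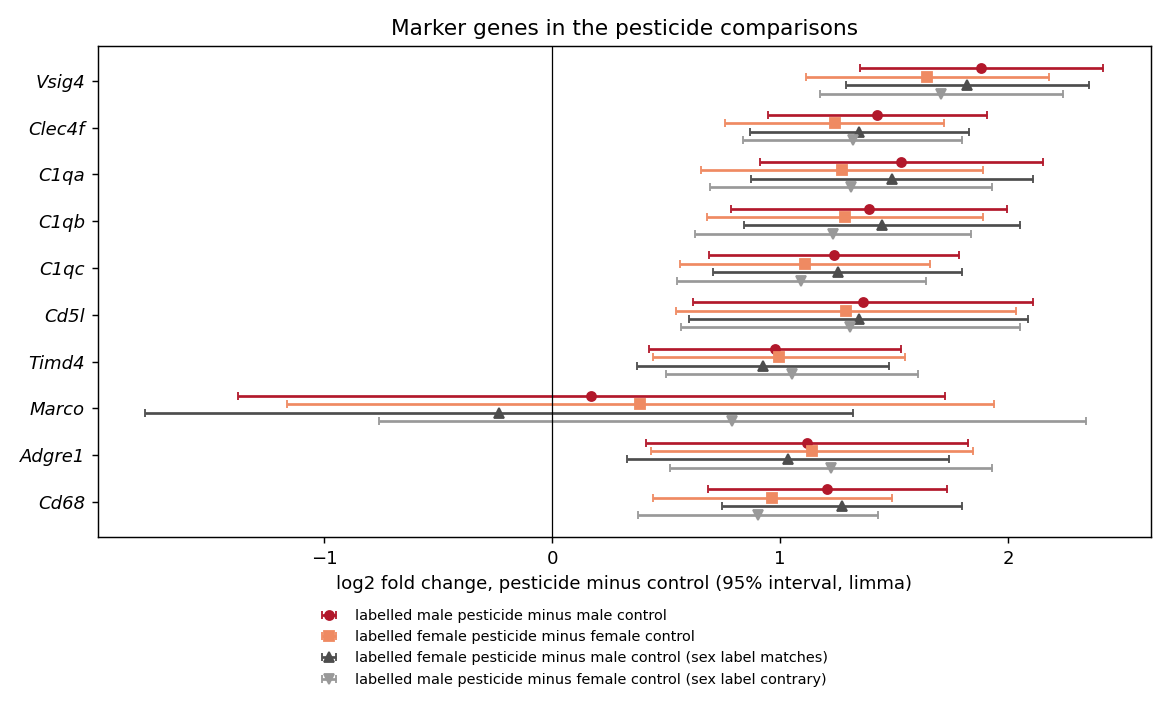
Log2 fold change with its 95% interval (limma) for the 10 marker genes in the 4 pesticide against control comparisons. The intervals of 9 genes lie above 0 in all 4, and those of Marco include 0 in all 4.

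No marker gene passed the test for a difference in its change between the labelled sexes. For the difference of the changes, labelled male minus labelled female, 0 of the 10 genes and 0 of all probes (0%) were called by limma, with 1265 probes at an unadjusted p under 0.05. The estimate was 0.24 for Vsig4 (95% interval -0.52 to 0.99), 0.26 for C1qa (-0.61 to 1.14) and -0.02 for Timd4 (-0.80 to 0.76), and the smallest unadjusted p of the 10 was 0.510. Differences of up to about the size of the changes themselves were thus not detectable for several genes. Sex-linked transcripts differed by labelled diet and not by labelled sex, so this test cannot show whether a response depended on sex.

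The labelled sexes were also set against each other within a diet. Between labelled male control and labelled female control livers 0 of the 10 genes and 0 of all probes passed (1792 at an unadjusted p under 0.05), and between labelled male pesticide and labelled female pesticide livers 0 and 0 (1311). Vsig4 differed by -0.18 (95% interval -0.71 to 0.36) among controls and by 0.06 (-0.47 to 0.59) among pesticide groups. Within a diet the labelled sexes were alike in sex-linked transcripts. Mean Xist was 5.08 in labelled male and 5.12 in labelled female controls, and 8.24 and 8.21 with pesticide. These comparisons therefore cannot show a difference between animals of unlike sex-linked transcripts, or its absence.

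Whether some marker genes changed more than others was tested on the difference between 2 genes within each array, by an exact two-sided permutation test over all 924 splits of the 12 arrays, for 45 pairs in each labelled sex, adjusted over the 90 tests. Of the 90, 6 passed, 5 of them with Vsig4 as the gene whose probe changed more. Each gene was read by its brightest tested probe, on signals without background subtraction. A difference in response between probes was therefore not told apart from a difference in change between genes. Among the tested probes of Cd68, described above, the dimmest gave the smallest log2 fold change in both labelled sexes. The count of pairs also depended on the background correction, as given in the last section. The Vsig4 change exceeded that of Cd68 by 0.67 in labelled males and 0.68 in labelled females, each with an exact permutation p of 0.00216, the smallest the splits can give, and an adjusted p of 0.0325. In labelled males it also exceeded that of Adgre1 by 0.76 and of C1qc by 0.65, and in labelled females that of Clec4f by 0.41, all at the same p values. C1qa changed more than C1qc by 0.30 in labelled males (exact permutation adjusted p = 0.0325). The count was 0 without labelled male pesticide 3 or without labelled male pesticide 6, and 12 and 13 without labelled male pesticide 2 or labelled female pesticide 5. With Vsig4 on the X chromosome, its pairs carry the same overlap of labelled diet and sex-linked transcripts.

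The genes also moved together among livers of the same group. The deviation of each array from its group mean was correlated between pairs of genes over 24 arrays, with 100000 permutations within groups and adjustment over 45 pairs. All 45 pairs passed by Pearson r and 43 by Spearman rho, with a median r of 0.89 and a median rho of 0.83. By r over all 24 arrays the C1q chains were the 3 closest pairs, while by rho the closest pair was C1qc and Cd5l (rho = 0.95). C1qa and C1qb had r = 0.99 (rho = 0.94), C1qa and C1qc r = 0.98 (rho = 0.93), and C1qb and C1qc r = 0.97 (rho = 0.87), each with a permutation p of 1e-05, the smallest that 100000 permutations can give, and an adjusted p of 1.61e-05 for r. Arrays share their RNA amount, hybridisation and normalization across genes, so part of any r is common to all probes. Over the 32078 tested probes the median r with the mean of the 10 was -0.08. Quantile normalization gives all arrays the same distribution, which limits how far such a median can move. The median therefore does not measure that common part.

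Marco followed the others less closely. The 9 pairs with Marco had a median r of 0.70, against 0.92 for the 36 pairs without it. Marco was nearest to Timd4 (r = 0.81, rho = 0.64, permutation adjusted p = 6.08e-05 and 0.00229) and Adgre1 (r = 0.80, rho = 0.61), and farthest from Clec4f (r = 0.58, rho = 0.38). By rho its pairs with Clec4f and Vsig4 did not pass (permutation adjusted p = 0.0902 and 0.0642). Timd4 varied by partner, with r = 0.92 (rho = 0.90) with Adgre1 and r = 0.84 (rho = 0.86) with Cd5l, but r = 0.67 (rho = 0.70) with C1qb, the lowest r of the pairs without Marco.

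Part of this rests on few arrays. Labelled male control 5 and labelled female control 4 were the highest of their groups in all 10 genes, and labelled female pesticide 2 was the highest of its group in all 10. Without those 2 control arrays the median r was 0.83, with 0.95 for the C1q pairs and 0.51 for the pairs with Marco. Without the 2 arrays farthest from the median of the first gene of each pair the median r was 0.84. With the mean of each group on each slide removed it was 0.88. Within the pesticide arrays alone the median r was 0.85, and within the control arrays 0.92.

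**Figure D3:**
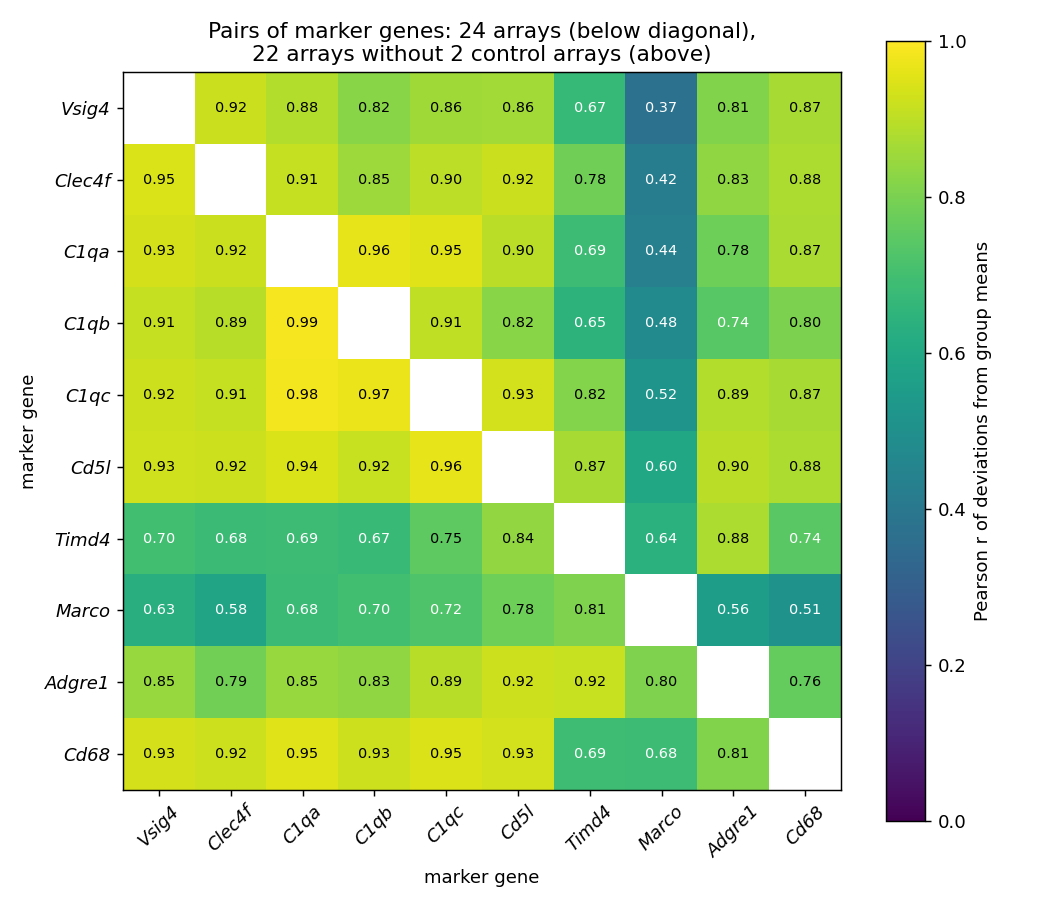
Pearson r between deviations from group means for each pair of marker genes, over 24 arrays below the diagonal and over 22 arrays without labelled male control 5 and labelled female control 4 above it. The C1q pairs reach 0.97 to 0.99 with all arrays, and the Marco row and column hold the lowest values.

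The 2 high control arrays had different profiles. On labelled female control 4 the largest deviations from the group mean were those of Marco (2.33), C1qa (1.72), Cd5l (1.70) and C1qb (1.69), and the smallest was that of Timd4 (0.49). On labelled male control 5 they were those of Marco (3.38), Adgre1 (1.73) and Timd4 (1.39), and the smallest was that of Clec4f (0.32). Without both arrays 9 of the 10 genes were still called higher in each of the 4 pesticide comparisons. Labelled female pesticide 5 was the lowest array of its group in 9 of the 10 genes, all but Marco, whose lowest value there was on labelled female pesticide 3.

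**Figure D4:**
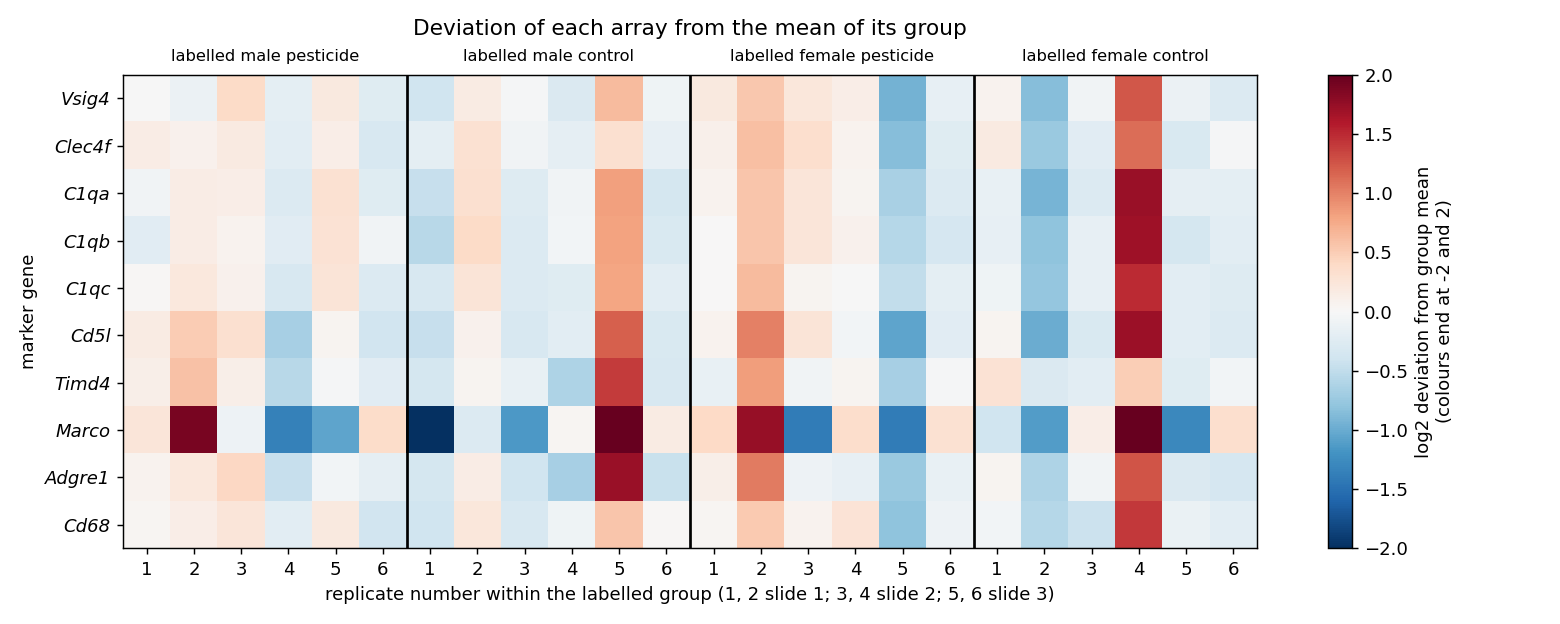
Log2 deviation of each array from the mean of its labelled group for the 10 marker genes, with the colours ending at -2 and 2. Labelled male control 5 and labelled female control 4 are high throughout, labelled female pesticide 5 is low, and Marco has the largest deviations.

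Each slide held 2 arrays of each group, so the changes can be read slide by slide. In labelled males 10, 9 and 9 of the 10 genes were above 0 on slides 1, 2 and 3, with median log2 differences of 1.48, 1.47 and 0.88. In labelled females 10, 9 and 10 were above 0, with medians of 2.03, 0.69 and 0.94. Marco was the gene at or below 0 wherever one was, and its slide values ranged from 2.46 on slide 1 to -1.94 on slide 3 in labelled males. Labelled male control 5 lies on slide 3 and labelled female control 4 on slide 2, the slides with the smallest medians of their sex. For labelled female pesticide against labelled male control, Adgre1 was also below 0 on slide 3, at -0.05. A slide as a block left the count at 9 of 10 in all 4 pesticide comparisons.

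Genes outside the 10 whose deviations were most like the mean of the 10 were sought among all tested genes. The 8 closest were Lgmn (r = 0.98), Csf1r (0.98), Ifi30 (0.98), Ly86 (0.97), Lpcat2 (0.96), Nckap1l (0.96), Cfp (0.96) and Igsf6 (0.96), over 24 arrays. Without labelled male control 5 and labelled female control 4 they kept r between 0.89 and 0.97. In labelled males all 8 were called higher, from 0.67 for Lgmn to 1.503 for Cfp on the log2 scale (limma), and in labelled females 7 were, all but Ifi30 (0.76, adjusted p = 0.0546). The 4 least alike were Gpatch2 (r = -0.78), U2af1 (-0.77), Ern1 (-0.77) and Tmx4 (-0.74), and for Tmx4 the value without the 2 control arrays was -0.32. Of all tested probes 1896, or 5.91%, had r above 0.5, the marker genes included.

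Other genes of Kupffer cell identity, a list of 16, gave 10 higher and 0 lower in labelled males and 11 higher and 0 lower in labelled females. The median log2 fold changes were 0.68 in both. The counts of this list and those below stand beside the shares over all tested probes. These were 11.6% higher and 10.7% lower in labelled males, and 8.88% higher and 9.44% lower in labelled females. Folr2, a folate receptor, averaged 10.52 ± 0.36 (SD, n = 6) on labelled male pesticide arrays, against 8.91 ± 0.35 on labelled male control arrays, and 10.38 ± 0.52 on labelled female pesticide arrays, against 9.04 ± 0.88 on labelled female control arrays. Fcna, a ficolin of the lectin complement pathway, changed by 1.25 ± 0.16 and 1.20 ± 0.16 in labelled males and females (adjusted p = 5.76e-06 and 1.26e-05, limma), yet followed the 10 genes among livers only loosely (r = 0.43). Mertk, a receptor for dying cells, rose by 0.65 ± 0.12 and 0.78 ± 0.12. Cd163, a haemoglobin scavenger receptor, did not pass, at 0.52 ± 0.31 and 0.55 ± 0.31 (adjusted p = 0.241 and 0.229, limma), nor did Spic or Id3, transcriptional regulators.

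Genes of macrophages in general moved the same way. Of 17 tested genes, 13 rose and 0 fell in labelled males and 9 rose and 0 fell in labelled females, with median log2 fold changes of 1.09 and 0.86. Cd14, a receptor for bacterial lipopolysaccharide, rose by 1.47 ± 0.24 and 1.51 ± 0.24, and Fcgr3, an antibody receptor, by 1.44 ± 0.25 and 1.14 ± 0.25. The monocyte genes had mean levels of 9.64 to 10.13 and 9.51 to 10.26 on the male and female pesticide arrays, against 8.90 to 9.43 and 9.19 to 10.31 on the control arrays. Among these 11 genes 5 rose and 1 fell in labelled males, and 1 rose and 0 fell in labelled females, where the one was Ly6c2, a surface antigen of inflammatory monocytes (2.23 ± 0.34 in labelled males and 1.82 ± 0.34 in labelled females). Of 9 genes of lipid-associated macrophages 2 rose and 1 fell in labelled males, and 1 rose and 0 fell in labelled females. With 8.88% of all tested probes called higher in labelled females, 1 gene of a list of 11 or 9 is near that share. Of 8 genes for growth factors and receptors of macrophage survival, 4 rose and 0 fell in labelled males, and 4 rose and 1 fell in labelled females. Il34, a ligand of the Csf1r receptor, rose by 0.53 ± 0.08 and 0.51 ± 0.08 (adjusted p = 6.38e-05 and 0.000108, limma). Csf1r itself, which is also in the Kupffer cell list, rose by 1.37 ± 0.30 and 1.16 ± 0.30.

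A list of 23 other complement genes, for partners, receptors and regulators of the classical and terminal pathway, moved in both directions. It does not hold Cfp or Fcna, complement genes given above that rose. Of the 23, 3 rose and 5 fell in labelled males, and 4 rose and 6 fell in labelled females, with median log2 fold changes of -0.12 and -0.10. Over all tested probes 11.6% rose and 10.7% fell in labelled males, and 8.88% and 9.44% in labelled females. The count that rose in labelled males is near the share over all probes. C1ra and C1s1, named here for the proteases that C1q carries, did not pass, at -0.15 ± 0.11 and 0.04 ± 0.08 in labelled males and -0.24 ± 0.11 and -0.02 ± 0.08 in labelled females (adjusted p = 0.343, 0.767, 0.128 and 0.889, limma). C6, C8a, C8b and C9, genes of the membrane attack complex, were lower with pesticide in both labelled sexes. The list also holds C5, C7 and C8g of that complex. Their values are not given here, so the complex as a whole is not described. C6 averaged 8.36 ± 0.26 (SD, n = 6) on labelled male pesticide arrays, against 11.92 ± 0.25 on labelled male control arrays, and 8.25 ± 0.32 on labelled female pesticide arrays, against 11.46 ± 0.89 on labelled female control arrays. On the log2 scale C8a changed by -3.23 and -3.26 in labelled males and females, C8b by -3.21 and -3.03, and C9 by -1.27 and -1.30, all past the test. Among livers of a group these genes did not track the 10 marker genes, with r of 0.29 for C6, 0.01 for C8a, -0.09 for C8b and 0.20 for C9.

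**Figure D5:**
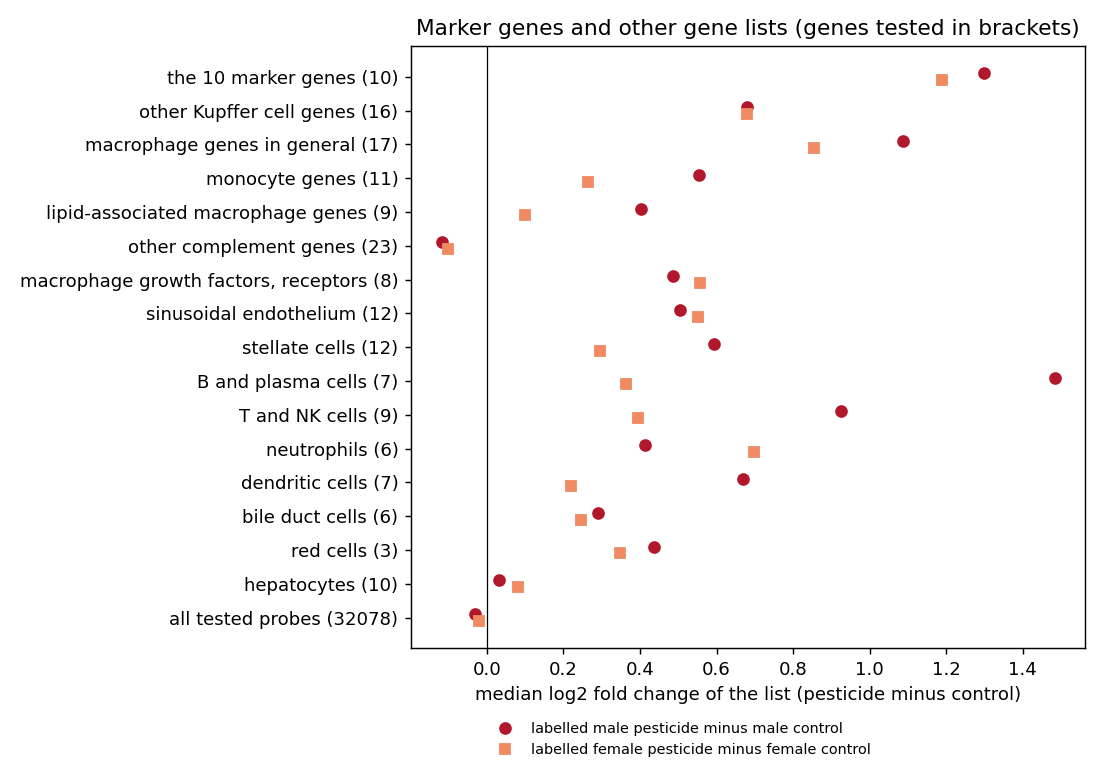
Median log2 fold change of the 10 marker genes, 15 other gene lists and all tested probes in labelled male pesticide against control (circles) and labelled female pesticide against control (squares). The 10 marker genes stand at 1.30 and 1.19, B and plasma cell genes at 1.48 and 0.36, and other complement genes at -0.12 and -0.10.

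Markers of other liver and blood cells moved as well, and their part in the results above was not tested. Of 12 sinusoidal endothelial markers 10 rose in labelled males and 9 in labelled females, and 0 fell. Their mean log2 level was 10.27 to 10.82 on labelled male pesticide arrays, against 9.75 to 10.29 on labelled male control arrays, and 10.34 to 10.78 on labelled female pesticide arrays, against 9.78 to 10.24 on labelled female control arrays. Of 12 stellate cell markers 10 rose in labelled males and 5 in labelled females, with mean levels of 10.03 to 10.45 and 10.14 to 10.33 on the male and female pesticide arrays, against 9.42 to 10.03 and 9.61 to 10.50 on the male and female control arrays. Of 7 B and plasma cell markers 5 rose in labelled males, with a median log2 fold change of 1.48, above that of the 10 marker genes, and 0 in labelled females (median 0.36). Their mean level was 8.28 to 9.87 and 7.94 to 8.78 on the male and female pesticide arrays, against 7.48 to 8.27 and 7.39 to 8.53 on the control arrays. Lymphocytes and antigen-presenting cells followed a similar split by count, though no probe passed the test for a difference between the labelled sexes. Labelled female control 4 lay above its group mean for B and plasma (0.67), T and NK (2.00) and dendritic cell markers (0.62). That array lowers the labelled female changes of these lists. Labelled male control 5 deviated by 0.46, -0.08 and 0.19 for the same lists. Of 9 T and NK cell markers 3 rose in labelled males and 0 in labelled females, with means of 8.71 to 9.13 and 8.59 to 8.99 on the male and female pesticide arrays, against 7.74 to 8.43 and 7.66 to 10.47 on the control arrays. Of 7 dendritic cell markers 5 rose in labelled males and 0 in labelled females, with means of 8.39 to 8.53 and 8.14 to 8.56 on the pesticide arrays, against 7.58 to 8.08 and 7.90 to 8.76 on the control arrays. Of 6 neutrophil markers 3 rose in each sex, with means of 8.55 to 9.70 and 8.83 to 10.41 on the pesticide arrays, against 8.13 to 8.88 and 8.15 to 9.10 on the control arrays. None of these lists had a gene that fell. Of 6 bile duct markers 0 passed in either sex. Cd8a, Ncr1, Ngp, Cxcr2, Xcr1, F13a1, Mmp12, Spi1 and Csf2 did not reach the brightness filter. Of 10 hepatocyte genes 0 passed in labelled males, and 1 rose in labelled females. Their mean level was 17.78 to 17.88 on labelled male pesticide arrays, against 17.71 to 17.87 on labelled male control arrays. On labelled female pesticide arrays it was 17.798 to 17.896, against 17.742 to 17.797 on labelled female control arrays. The female ranges only just missed each other, at 17.7977 for the lowest with pesticide and 17.7965 for the highest in controls. Of the red cell markers tested, 3 in all, 1 rose and 1 fell in labelled males, and 0 rose and 1 fell in labelled females, the gene that fell being Alas2 in both.

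Labelled female control 4 stood apart for other cells too. Its mean over T and NK cell markers was 10.47, while the labelled female pesticide arrays had 8.59 to 8.99, and it lay 2.00 above its group mean. It lay 1.504 above its group mean for macrophage genes in general, 0.87 for monocyte genes and 0.02 for hepatocyte genes. Labelled male control 5 lay 0.63 above its group mean for macrophage genes in general, and at -0.08 for T and NK cells and 0.03 for monocytes. Over all 24 arrays the mean of the 10 marker genes and the mean of the macrophage genes in general had r = 0.96 between their deviations, as a description. The same r was 0.75 for monocyte, 0.71 for dendritic cell, 0.65 for T and NK cell, 0.55 for stellate cell, 0.54 for B and plasma cell, 0.20 for endothelial and 0.02 for hepatocyte markers. Without labelled male control 5 and labelled female control 4 it was 0.94 for the macrophage genes, 0.63 for monocyte, 0.32 for dendritic cell, 0.33 for T and NK cell, -0.16 for stellate cell and 0.35 for B and plasma cell markers.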

How the data were processed

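Per the file headers and the submitters' processing notes, the deposited scanner files hold spot intensity and local background extracted by Agilent Feature Extraction 10.10.1.1, with probe positions on mm9. The deposited value table holds log2 values that, per the labels, the authors filtered and quantile normalized; its filter is not given in the sources used here. It served as an alternative, and all 24 columns matched their own scanner file best.

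Of 62976 spots, 3671 control spots were left out. The median signal was log2 transformed without background subtraction, outlier spots (0 to 9 per array) were dropped, spots of a probe averaged, and arrays quantile normalized. A probe was tested when well above background on at least 4 of 6 arrays of a group. limma 3.58.1 (R 4.3.3) fitted the 4 group means over the 24 arrays together, all tests two-sided, calls at adjusted p under 0.05. The fit and the permutation test were checked on simulated data. Permutations and correlations used numpy 2.4.6 and scipy 1.17.1. Arrays give no counts, and their number limits the precision.

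The 10 genes, the gene lists and the tests were chosen with earlier results of these data known. Named genes outside the 10 are, per list, up to 4 called genes with the smallest p, and the 8 most and 4 least like genes; Cd163, Spic, Id3, C1ra and C1s1 were named after their values were seen. List genes were matched by file name or RefSeq synonym; Ighm, Trbc2 and Hbb-bs were not matched. Alternatives were another background correction, scaling, filter, block, model, the deposited table and leaving out arrays.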

Additional observations from a re-analysis of the deposited data

Results flagged for a closer look

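An array that stood far from the other 5 of its group, with a gap to its neighbour that, as a share of the group's range, passed Dixon's 95% value for 6 arrays, was found for 8 of the 40 combinations of gene and labelled group. For a single combination chance picks out about 1 in 20. The marker genes moved together among arrays, so the 40 are not separate chances and the count is a description only. All 8 were high control arrays. Labelled female control 4 stood out for C1qa (ratio 0.710), C1qb (0.741), C1qc (0.693), Adgre1 (0.635) and Cd68 (0.741), and labelled male control 5 for Cd5l (0.678), Timd4 (0.663) and Adgre1 (0.665). On labelled female control 4 C1qa was at 12.05, with the next control at 10.17. On labelled male control 5 Adgre1 was at 11.28, with the next control at 9.70. The cause was not tested.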

How the results depend on the processing

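The count of 9 of 10 genes called higher held in labelled males and females under every other background correction, scaling, filter, block, model and the deposited table. It was 8 to 9 when single arrays were left out, 8 without X and Y probes, which removes Vsig4, and 9 without labelled male control 5 and labelled female control 4 (these last 2 settings were chosen after seeing the data). For labelled female pesticide against labelled male control it was 8 without the dim-probe filter, with the replicate block and with only the arrays compared, and 7 to 9 leaving out arrays; Adgre1 was the gene lost in each, with Timd4 also lost without labelled female pesticide 2 (adjusted p = 0.0505). With only 2 against 2 arrays on a slide, most single calls were lost, and Adgre1 there was -0.049 on slide 3. The labels do not say that replicate numbers pair the samples: same-numbered arrays correlated at r of -0.12 to 0.34 (median 0.078, against -0.021 for other numbers), short of the rule for pairing, though 14 of 24 arrays were closest to one of their own number, and equal numbers also share a slide. The replicate block changed no other call of the 10 genes, and gave 8099 called probes in labelled males and 6751 in labelled females. Called probes were higher in 52.1% of cases in labelled males, but in 38.1% with median and 43.6% with processed signals when scaled to each array's 75th percentile; for labelled male pesticide against female control these were 51.0% and 37.8%. The sex comparisons gave 0 to 1 called probes leaving out arrays, and 1 between pesticide groups without the 2 control arrays. Pairs with unequal change numbered 6, 0 to 13 leaving out arrays and 16 with normexp correction; the cause was not tested. With 6 arrays a group, the spread limits what can be seen, most of all for Marco.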
